A study of Homo sapiens with 9 samples.

Results

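The genes described here are the nuclear genes of the mitochondrial respiratory chain and of ATP synthase, measured by RNA sequencing in lines of PANC-1, a human cell line from a pancreatic ductal carcinoma. They were picked by symbol alone, as those that begin with NDUFA, NDUFB, NDUFC, NDUFS or NDUFV and a digit, with UQCR, with COX and a digit from 4 to 8, or with ATP5, together with SDHA, SDHB, SDHC and SDHD. The rule matched 88 of 16750 genes in the deposited table, and 85 of them were among the 14554 genes with at least 1 CPM (counts-per-million) in at least 3 libraries. Of the 85, 77 encode a subunit of complexes I to V and 8 do not. The 8 are ATP5IF1 (an inhibitor of ATP synthase), COX7A2L (a factor that joins complexes III and IV), NDUFA4L2 (a paralogue of NDUFA4), the copies UQCRHL, UQCRBP1 and ATP5F1EP2, and the antisense RNAs NDUFB2-AS1 and NDUFV2-AS1. The 3 genes below the expression minimum were COX6B2, ATP5MGL and NDUFA6-DT.

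The comparison was between 3 lines, all of them PANC-1 cells carried through lentiviral transduction and puromycin selection. SLC22A10_OE received pLV-SLC22A10, SLC22A15_OE received pLV-SLC22A15, and vector received the empty pLV-EV. SLC22A10 and SLC22A15 belong to the SLC22 family of organic ion transporters. All cells were kept in puromycin and serum-containing medium, and the labels call them stable clones without saying how many clones stand behind a group. Each group had 3 libraries, which carry the numbers 1 to 3 in the deposited table and are named so here. The sample titles end in A1, A2 and B1 in every group, and nothing says what the letters mark or which numbered column belongs to which title. Nothing says that the libraries of a group came from separate cultures. The p-values set differences of group means against the variation between libraries of a group, and that variation may be only technical.

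The respiratory chain passes electrons from NADH (complex I) and succinate (complex II) through coenzyme Q, complex III and cytochrome c to oxygen at complex IV, and ATP synthase (complex V) uses the proton gradient that results. Most subunits are encoded in the nucleus, translated in the cytosol and imported into mitochondria, while a core set is encoded in mitochondrial DNA, so that both genomes supply complexes I, III, IV and V. Nuclear respiratory factor 1 (NRF1), the ETS factor GABP and YY1 are known regulators of many of these nuclear genes.

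Library totals were 28.4 to 42.9 M reads, and a gene at 1 CPM held 27.8 to 43.4 reads, for a counting SD of 15.2% to 18.97%. SLC22A10 stood at 80.5, 91.4 and 84.4 CPM in SLC22A10_OE, at 0 in the 3 SLC22A15_OE libraries and at 0 to 0.0281 CPM in vector. SLC22A15 stood at 73.3 to 78.3 CPM in SLC22A15_OE, at 3.44 to 4.12 CPM in SLC22A10_OE and at 5.46 to 6.52 CPM in vector. Of the epithelial keratins, KRT19 stood at 197 to 229 CPM in SLC22A10_OE, 66.9 to 76.3 CPM in SLC22A15_OE and 66.1 to 81.3 CPM in vector. KRT18 stood at 95.5 to 101 CPM in SLC22A10_OE, 95.1 to 95.8 CPM in SLC22A15_OE and 160.1 to 163 CPM in vector, and KRT8 at 84.8 to 93.5, 44.0 to 54.0 and 82.7 to 101 CPM in the same order, while KRT7 stayed at or below 0.563 CPM. The endothelial marker CDH5 also moved with the groups, at 6.24 to 7.65 CPM in SLC22A10_OE, 2.52 to 2.86 CPM in SLC22A15_OE and 0.901 to 1.45 CPM in vector. The part of these markers in the results was not tested. EPCAM, the endothelial markers PECAM1 and VWF, and the acinar, islet and leukocyte markers looked up had no entry in the deposited table. In each group 1 library (SLC22A10_OE 3, SLC22A15_OE 1 and vector 1) held less mitochondrial ribosomal RNA than its partners, 0.00958% to 0.0151% of reads in these 3 against 0.0454% to 0.0843% in the other 6. These 3 libraries also deviated from their group means together, with correlations of 0.48 to 0.57 between groups. Member counts are given with and without them, overall and by complex.

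The promoters of some genes on which the results turn are shown first, since known regulators of respiratory genes bind there. All genes shown were called higher in SLC22A10_OE than in vector, and of them only NDUFB2 was also called higher in SLC22A15_OE. They were picked after their values were seen and do not stand for all members that hold these letters. RefSeq promoter windows (GRCh38.p14) of 250 bases before to 50 bases after the start were matched for 69 of the 85 genes and searched on both strands. GCGCANGCG, from the letters NRF1 is known to bind, was found in 21 of the 69 windows (30.4%), against 14.5% of 11161 windows of tested genes and 8.05% of all 27305 windows. CCGGAAG, the core of an ETS site, was found in 20 (28.99%), against 18.7% and 10.7%. AAGATGGCG, known for YY1, was found in 8 (11.6%), against 3.83% and 1.85%, and TGACGTCA, the cyclic AMP response element, in 5 (7.25%), against 3.23% and 1.98%. GGGCGG, the letters of an SP1 box, was found in 43 (62.3%), against 68.8% and 44.6%, and TATAAA in 6 (8.70%), against 5.89% and 11.95%. Matches to different motifs may overlap in a window. A match is a string of letters and no evidence of binding.

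The stretches below end at the last base before the annotated start and run 5′ to 3′ on the gene's strand. NDUFA13 (chr19:19516145-19516224), UQCRH (chr1:46303618-46303697), UQCRQ (chr5:132866562-132866641), COX5B (chr2:97645982-97646061), COX6B1 (chr19:35648243-35648322) and COX8A (chr11:63974540-63974619) are on the plus strand, were called higher in SLC22A10_OE than in vector, and show the ETS letters, CCGGAAG or its reverse complement, in capitals. SDHA (chr5:218140-218319, plus strand) shows in capitals 4 copies of the NRF1 letters, and UQCRC1 (chr3:48609647-48609726, minus strand) shows 2 copies of their reverse complement. Both were called higher in SLC22A10_OE than in vector. Among members with a window, the NRF1 letters were in 17.1% of those called higher there and in 44.1% of the others. NDUFB2 (chr7:140696628-140696707, plus strand), which was higher in both overexpressing lines, shows the cyclic AMP response element in capitals.
NDUFA13: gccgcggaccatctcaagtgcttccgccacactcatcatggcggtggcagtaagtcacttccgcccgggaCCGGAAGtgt
UQCRH: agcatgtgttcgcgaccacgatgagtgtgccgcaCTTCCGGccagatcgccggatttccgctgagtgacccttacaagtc
UQCRQ: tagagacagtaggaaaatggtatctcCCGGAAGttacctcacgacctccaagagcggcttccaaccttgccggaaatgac
COX5B: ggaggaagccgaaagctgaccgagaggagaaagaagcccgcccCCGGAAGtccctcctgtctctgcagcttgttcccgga
COX6B1: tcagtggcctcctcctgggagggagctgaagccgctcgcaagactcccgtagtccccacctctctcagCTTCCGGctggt
COX8A: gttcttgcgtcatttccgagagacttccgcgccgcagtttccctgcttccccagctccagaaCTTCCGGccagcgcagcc
SDHA: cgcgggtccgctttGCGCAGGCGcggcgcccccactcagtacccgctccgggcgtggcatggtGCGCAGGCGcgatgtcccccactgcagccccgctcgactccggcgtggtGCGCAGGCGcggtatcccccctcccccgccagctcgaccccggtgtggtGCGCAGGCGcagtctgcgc
UQCRC1: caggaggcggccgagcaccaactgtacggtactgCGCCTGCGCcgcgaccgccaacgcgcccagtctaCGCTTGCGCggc
NDUFB2: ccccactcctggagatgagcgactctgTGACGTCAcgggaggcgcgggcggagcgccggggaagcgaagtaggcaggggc

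In SLC22A10_OE against vector, 40 of the 85 genes were higher and 6 were lower (limma on log2(CPM + 1), Benjamini-Hochberg over the 14554 genes tested, adjusted p under 0.05), and 39 did not pass. Over all genes tested, 34.7% were called higher and 32.5% lower. The share of members called higher, 47.1%, was thus above that of all genes, and the share called lower, 7.06%, below it. The median log2 fold change of the members was 0.16, against 0.0046 over all genes. Most changes were small on the log2(CPM + 1) scale, with NDUFA4L2 at -0.63 and NDUFA13 at 0.66. That scale understates the change of low genes such as NDUFA4L2, whose log2 fold change in the authors' deposited values was -1.35. Centring each library on its own median, another scaling, lowered every log2 fold change by 0.12, so that 18 members were called higher and 16 lower, against 26.6% and 42.8% of all genes. The median of the members was then 0.04 and that of all genes -0.12, and the distance between these medians was 0.16 under both scalings. Directions below are those of the deposited scaling, in which the calls of small differences depend on this choice. Without the 3 libraries low in mitochondrial ribosomal RNA, 49 members were higher and 8 lower, where 36.8% of all genes were higher and 35.0% lower. By complex, the subunits called in that fit were 22 higher and 3 lower for complex I, 2 and 0 for complex II, 5 and 1 for complex III, 10 and 1 for complex IV, and 9 and 1 for complex V. In bulk RNA, more transcripts per cell and more cells that express a gene cannot be told apart.

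In SLC22A15_OE against vector, 4 of the 85 genes were called higher, NDUFA5, NDUFB2 and UQCRC2 among them, and NDUFA4 was called lower. Over all genes, 10.8% were called higher and 9.58% lower. The members' shares were 4.71% and 1.18%, and their median log2 fold change was -0.0040. With a term for low mitochondrial ribosomal RNA in the fit, 9 members were called higher (10.6%) and 12 lower (14.1%), where 19.7% of all genes were higher and 18.8% lower. Without the 3 libraries, 8 were higher (9.41%) and 9 lower (10.6%), where 16.1% of all genes were higher and 14.8% lower. Between the overexpressing lines, 35 members were higher in SLC22A10_OE than in SLC22A15_OE and 6 were lower, where 32.1% of all genes were higher and 30.8% lower, and the members' median was 0.16. The comparisons share libraries, so their calls are not independent of each other.

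**Figure D1:**
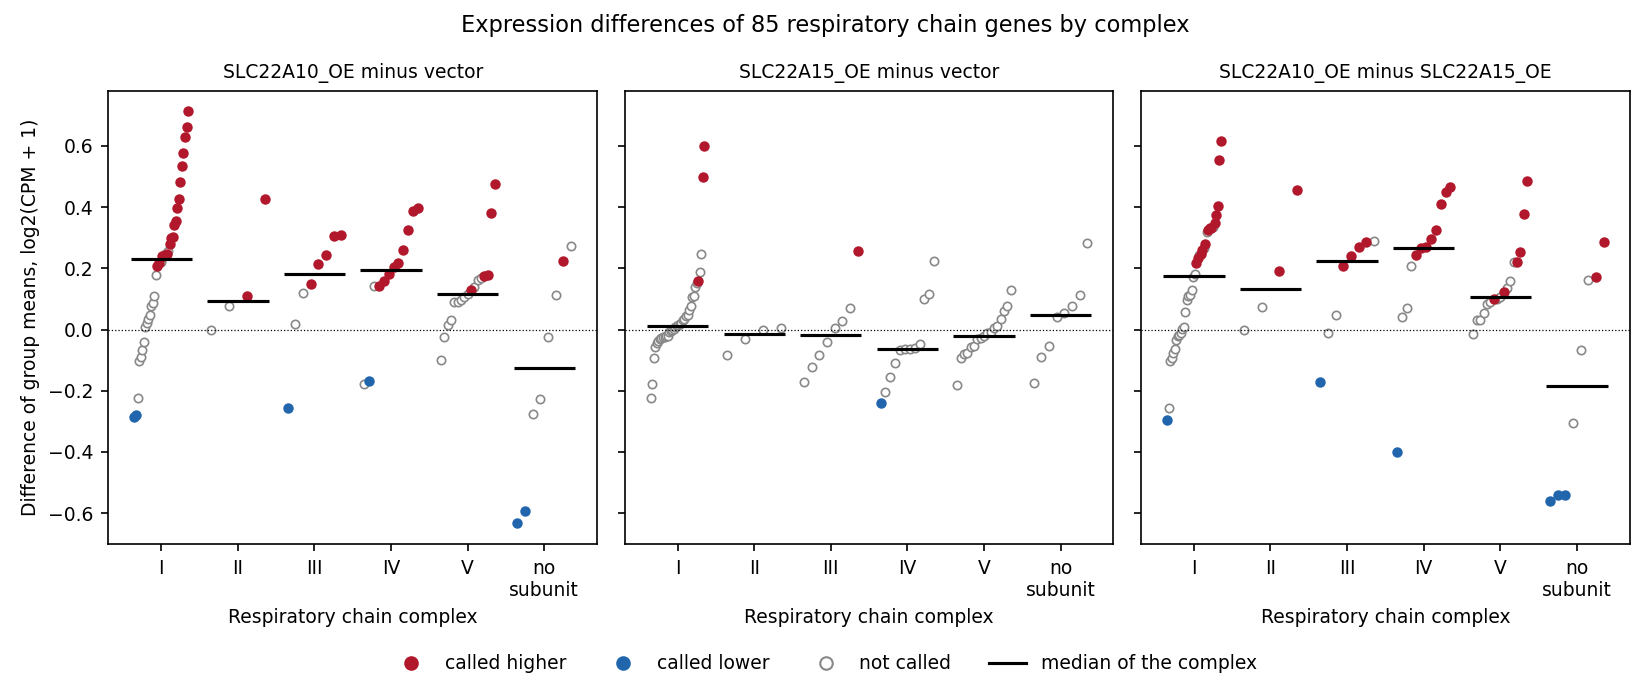
Difference of group means on the log2(CPM + 1) scale for each of the 85 genes, by complex, for SLC22A10_OE minus vector, SLC22A15_OE minus vector and SLC22A10_OE minus SLC22A15_OE. Filled points passed the threshold and horizontal lines are medians. In SLC22A10_OE minus vector the medians of complexes I to V lie above 0, at 0.09 to 0.23, and each would be 0.12 lower with libraries centred on their medians. In SLC22A15_OE minus vector they lie at -0.06 to 0.01.

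The summed CPM of the 77 subunits was 7304, 7683 and 7349 in SLC22A10_OE, 6471, 6484 and 6559 in SLC22A15_OE, and 6584, 6527 and 6657 in vector. All 3 SLC22A10_OE libraries lay above the other 6. The mean sum was 7445 ± 207 in SLC22A10_OE, 6505 ± 47.4 in SLC22A15_OE and 6589.5 ± 65.1 in vector (SD, n = 3 each), so that SLC22A10_OE stood at 113% of vector and SLC22A15_OE at 98.7%. By complex, the sums in SLC22A10_OE were 119% of those in vector for complex I, 112% for complex II, 111% for complex III, 118% for complex IV and 108% for complex V. In SLC22A15_OE they were 103%, 96.9%, 100.3%, 95.3% and 96.7% of vector in the same order. All these sums are in the deposited scaling and were not centred. Centring lowered every log2 fold change by 0.12 in SLC22A10_OE against vector and by 0.03 in SLC22A15_OE. The size of the rise in SLC22A10_OE thus depends on the scaling, most of all for the complexes with the smallest rise. Averaged over the 9 libraries, the subunits with the highest CPM were ATP5F1A and ATP5F1B, the α and β subunits of ATP synthase, at 736 and 707 CPM. These values are not corrected for transcript length. The lowest retained subunits were NDUFA3, at 0.937 CPM, and COX7A1, at 2.21 CPM.

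Complex I, the NADH dehydrogenase, had 36 measured nuclear subunits. In SLC22A10_OE against vector 18 were higher and 2 lower, with a median of 0.23. After centring the median was 0.11, and 11 were higher and 7 lower. Over all genes, the shares to set beside each complex are 34.7% higher and 32.5% lower, or 26.6% and 42.8% after centring. Of the 7 core subunits, which carry the flavin and the iron-sulfur clusters, 4 were higher and none was lower. NDUFV1, the subunit that binds NADH, had 101, 111 and 109.9 CPM in SLC22A10_OE, 88.2, 84.5 and 78.9 CPM in SLC22A15_OE and 79.5, 71.2 and 70.2 CPM in vector. Every SLC22A10_OE library was above every other library, and the difference from vector was 0.54 (SE 0.064, limma adjusted p = 7.96e-06). NDUFS1 and NDUFS8, which hold iron-sulfur clusters, were called at 0.21 and 0.22 (limma adjusted p = 0.00189 and 0.0234).

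Of the 18 other subunits of complex I outside the distal membrane arm, 6 were higher in SLC22A10_OE than in vector (33.3%) and 2 lower (11.1%). Over all genes tested these shares were 34.7% and 32.5%. NDUFA13, also known as GRIM-19, had 93.4, 109 and 106 CPM in SLC22A10_OE, 70.5, 65.4 and 64.4 CPM in SLC22A15_OE, and 71.6, 59.1 and 63.4 CPM in vector. The SLC22A10_OE libraries were all above the rest, while those of SLC22A15_OE and vector overlapped. It rose by 0.66 in SLC22A10_OE (SE 0.076, limma adjusted p = 6.08e-06), and its difference in SLC22A15_OE was 0.05 (adjusted p = 0.726). NDUFA5, an accessory subunit of the peripheral arm, had 50.9, 48.2 and 42.7 CPM in SLC22A10_OE, 38.9, 44.1 and 46.4 CPM in SLC22A15_OE and 25.4, 35.1 and 30.7 CPM in vector. Both overexpressing lines lay above vector without overlap and overlapped each other. The gene rose by 0.63 in SLC22A10_OE (SE 0.11, limma adjusted p = 0.000169) and by 0.50 in SLC22A15_OE (SE 0.11, adjusted p = 0.00439). The other accessory subunits called higher in SLC22A10_OE were NDUFA1, NDUFA2 and NDUFA7, at 0.30 to 0.40, and NDUFA3, described next. The accessory subunits that did not pass ranged from -0.22 for NDUFA6 to 0.22 for NDUFS5. NDUFS4, a subunit known from Leigh syndrome, averaged 54.0 CPM in SLC22A10_OE, 40.5 CPM in SLC22A15_OE and 47.5 CPM in vector, and it was called only in SLC22A10_OE against SLC22A15_OE, at 0.40 (limma adjusted p = 0.00154).

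The subunits of complex I that were lower in SLC22A10_OE were NDUFV3 and NDUFS6, both accessory subunits of the peripheral arm. NDUFV3 had 39.8, 37.9 and 39.1 CPM in SLC22A10_OE, 48.7, 45.4 and 49.8 CPM in SLC22A15_OE and 47.3, 48.5 and 47.0 CPM in vector, so that SLC22A10_OE lay below both other groups. It fell by 0.29 against vector (log2, SE 0.056, limma adjusted p = 0.000528) and by 0.29 against SLC22A15_OE (SE 0.056, adjusted p = 0.000484). NDUFS6 had 24.9, 28.2 and 23.6 CPM in SLC22A10_OE and 28.7, 34.5 and 30.8 CPM in vector, which lay just above. Its fall by 0.28 (SE 0.089, limma adjusted p = 0.0131) was lost without SLC22A10_OE replicate 3 or vector replicate 2. NDUFA3, the gene just inside the expression minimum, had 0.879, 1.55 and 1.44 CPM in SLC22A10_OE and 0.708, 0.872 and 0.504 CPM in vector. It was called higher at 0.43 (SE 0.15, limma adjusted p = 0.0257), but not after centring or in several fits that left out a library. COX6B2, the gene just outside, had 0.233 to 0.755 CPM in SLC22A10_OE, 0.338 to 0.599 CPM in SLC22A15_OE and 0.371 to 0.708 CPM in vector.

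In the distal membrane arm of complex I, counted here as the 11 NDUFB genes, 8 were higher in SLC22A10_OE than in vector and none was lower. NDUFB11 had 179, 204 and 179 CPM in SLC22A10_OE, 145, 143 and 145 CPM in SLC22A15_OE and 138, 126 and 137 CPM in vector, with a difference of 0.48 between SLC22A10_OE and vector (SE 0.057, limma adjusted p = 7.98e-06). The others called higher besides NDUFB2 were NDUFB1, NDUFB3, NDUFB5, NDUFB6, NDUFB8 and NDUFB9, at 0.24 to 0.35, and NDUFB4, NDUFB7 and NDUFB10 did not pass, at -0.07 to 0.26. NDUFB2 had 34.3, 38.3 and 36.6 CPM in SLC22A10_OE, 37.9, 34.2 and 38.8 CPM in SLC22A15_OE and 23.3, 24.7 and 24.2 CPM in vector. Both overexpressing lines were above vector and overlapped each other. NDUFB2 rose by 0.58 in SLC22A10_OE (SE 0.068, limma adjusted p = 7.43e-06) and by 0.60 in SLC22A15_OE (SE 0.068, adjusted p = 3.43e-05). Its antisense neighbour NDUFB2-AS1 moved otherwise, with 0.853, 1.00 and 0.648 CPM in SLC22A10_OE, 1.68, 1.40 and 2.03 CPM in SLC22A15_OE and 1.38, 0.816 and 1.51 CPM in vector. It was lower in SLC22A10_OE than in SLC22A15_OE by a log2 difference of -0.56 (limma adjusted p = 0.00471), and it did not pass against vector in either line. The libraries were strand-specific, but the sources used here do not give the use of strand in the counting, and reads of this pair may be mixed. Against SLC22A15_OE, 13 of the 36 subunits of complex I were higher in SLC22A10_OE (36.1%) and NDUFV3 was lower (2.78%), with a median of 0.18. Over all genes in that comparison 32.1% were higher and 30.8% lower, so the share called higher was near that of all genes. After centring 9 subunits were higher and 5 lower, against 25.5% and 39.8% of all genes.

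Complex II, succinate dehydrogenase, is made of SDHA to SDHD, all encoded in the nucleus. SDHC, a membrane anchor, had 135, 140.0 and 128 CPM in SLC22A10_OE, 94.2, 97.2 and 102 CPM in SLC22A15_OE and 98.6, 99.2 and 101 CPM in vector. The SLC22A10_OE libraries stood above all others, and SDHC rose by 0.43 against vector (SE 0.050, limma adjusted p = 7.21e-06). SDHA, the flavoprotein, had 258, 279 and 269 CPM in SLC22A10_OE, 241, 234 and 231 CPM in SLC22A15_OE, and 256, 241 and 250.3 CPM in vector. The SLC22A10_OE libraries lay only just above vector, and the call at 0.11 (SE 0.044, limma adjusted p = 0.0437) turned to -0.01 (adjusted p = 0.836) with libraries centred. This SDHA call held in only 8 of 19 alternative fits. It was also lost with edgeR, with DESeq2 and in several fits that left out a library. The authors' deposited FDR for it was 0.0504. SDHA has near-identical pseudogene copies, so its count is uncertain. SDHB, the iron-sulfur subunit, differed from vector by 0.08 in SLC22A10_OE (adjusted p = 0.248) and by 0.0051 in SLC22A15_OE (adjusted p = 0.965). SDHD, the other anchor, stood at 62.6 to 63.0 CPM in SLC22A10_OE, 60.5 to 65.3 CPM in SLC22A15_OE and 60.4 to 66.9 CPM in vector. Within the complex, SDHC alone was called higher in SLC22A10_OE under centring, where the median of the 4 genes was -0.03, against 0.09 without it.

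**Figure D2:**
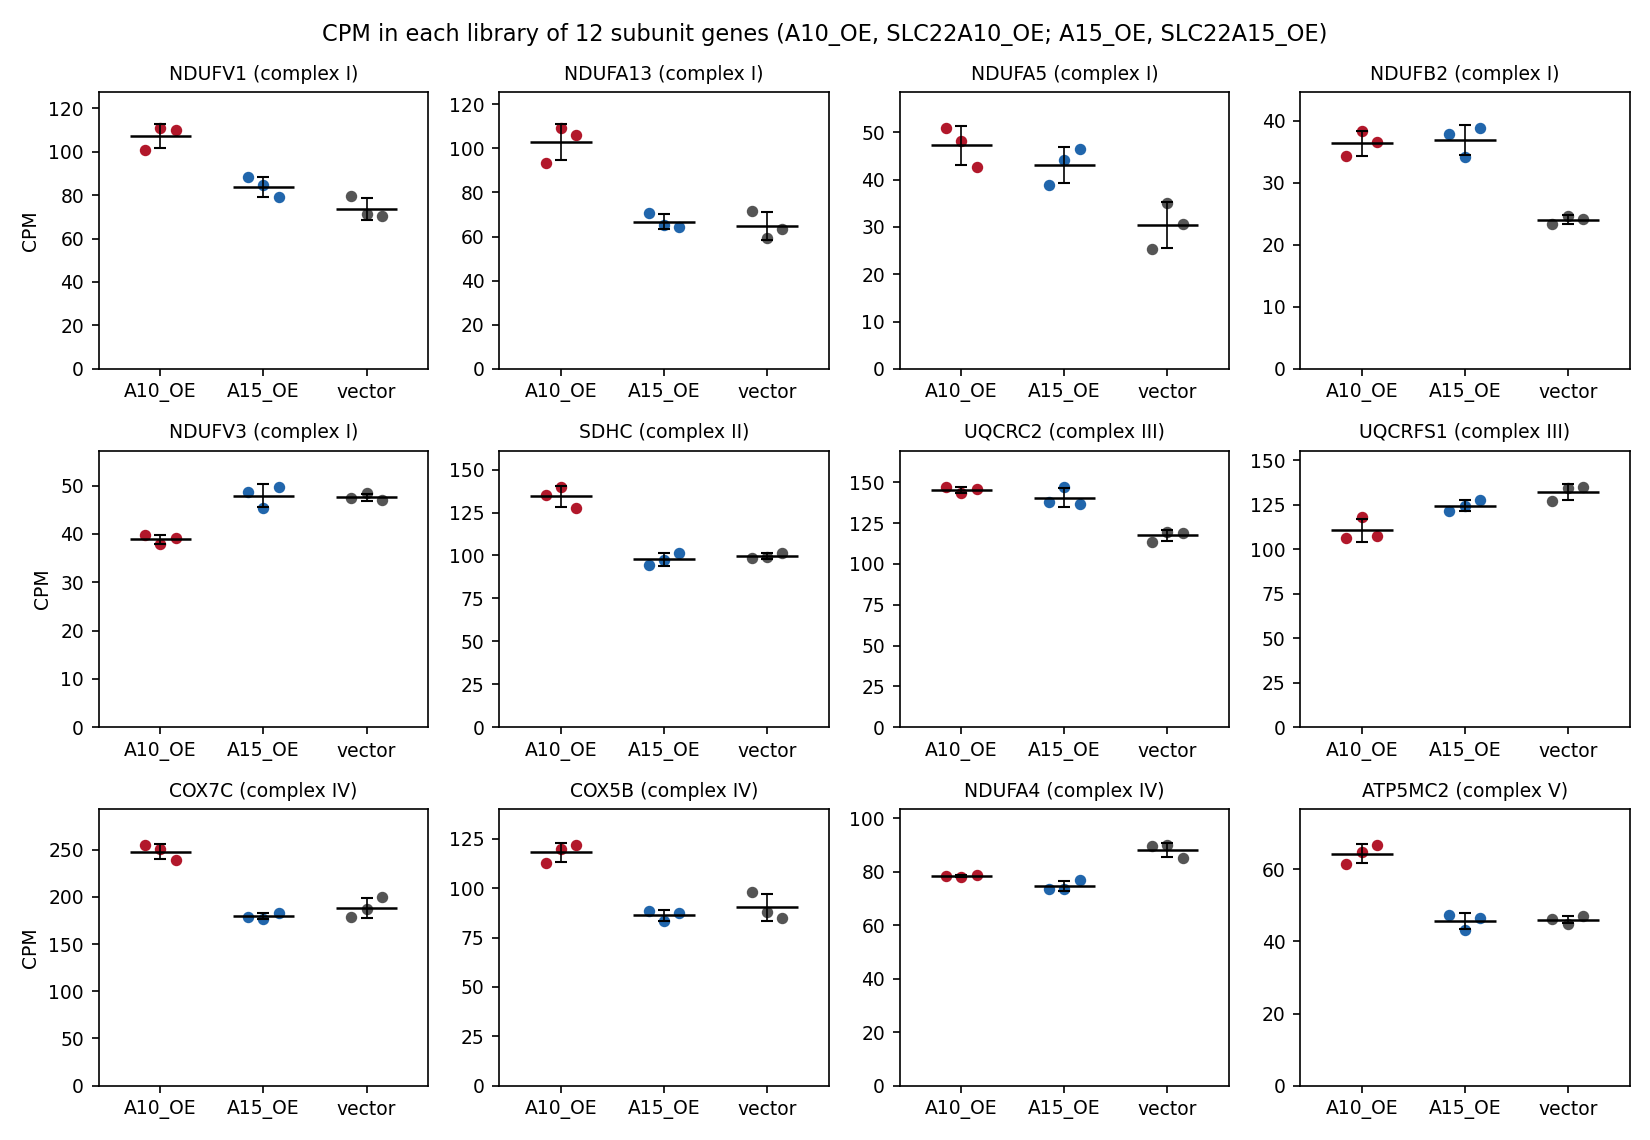
CPM in each library of 12 subunit genes, from left to right in SLC22A10_OE, SLC22A15_OE and vector, with axes that start at 0. Points are libraries, horizontal lines means and bars SDs (n = 3 each). NDUFV1, NDUFA13, SDHC, COX7C, COX5B and ATP5MC2 are highest in SLC22A10_OE, NDUFA5, NDUFB2 and UQCRC2 are higher in both overexpressing lines than in vector, and NDUFA4 is lower in both.

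Complex III, the cytochrome bc1 complex, had 8 measured nuclear subunits. In SLC22A10_OE 5 were higher than in vector and 1 was lower, with a median of 0.18 that was 0.06 after centring, when 2 were higher and 1 lower. UQCRC2, a core protein of the matrix arm, had 147, 143 and 146 CPM in SLC22A10_OE, 138, 147 and 137 CPM in SLC22A15_OE, and 113, 119.8 and 119 CPM in vector. Both overexpressing lines lay above vector and overlapped each other. It rose by 0.31 in SLC22A10_OE (SE 0.047, limma adjusted p = 7.18e-05) and by 0.26 in SLC22A15_OE (SE 0.047, adjusted p = 0.00145). UQCRC1, its partner, had 141, 154 and 155 CPM in SLC22A10_OE, 131, 124 and 125 CPM in SLC22A15_OE and 131, 114 and 118 CPM in vector. Only SLC22A10_OE stood apart, with a rise of 0.31 against vector (SE 0.059, limma adjusted p = 0.000461), while SLC22A15_OE differed by 0.07 (adjusted p = 0.469).

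UQCRFS1, the Rieske iron-sulfur protein, was the one nuclear subunit of complex III called lower in SLC22A10_OE. It had 106, 118 and 107 CPM in SLC22A10_OE, 121, 124 and 128 CPM in SLC22A15_OE and 127, 134 and 135 CPM in vector. It fell by 0.26 against vector (SE 0.052, limma adjusted p = 0.000781), and the fall by 0.17 against SLC22A15_OE (adjusted p = 0.0119) was lost without SLC22A10_OE replicate 1 or SLC22A15_OE replicate 3. The small subunits UQCRQ and UQCRH rose in SLC22A10_OE against vector by 0.24 and 0.15 (limma adjusted p = 0.00221 and 0.00875), and both calls were lost with centring. Against SLC22A15_OE they were higher by 0.29 and 0.27 (adjusted p = 0.000811 and 0.000139). UQCR11 was called higher than vector at 0.21 (limma adjusted p = 0.0169), and UQCR10 differed by 0.02 (adjusted p = 0.810). UQCRH has a near-identical copy, UQCRHL, and reads may be split between them. UQCRBP1, a copy of UQCRB, had 2.27, 1.49 and 1.98 CPM in SLC22A10_OE and 2.80, 4.22 and 3.21 CPM in vector and was called lower at -0.59 (SE 0.16, limma adjusted p = 0.00587), while UQCRB did not pass in any comparison.

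Complex IV, cytochrome c oxidase, had 12 measured nuclear subunits with NDUFA4 among them, since NDUFA4 is now placed there. In SLC22A10_OE 9 were higher than in vector and 1 was lower, with a median of 0.19 that was 0.07 after centring, when 2 were higher and 2 lower. COX7C had 255, 251 and 239 CPM in SLC22A10_OE, 179, 177 and 183 CPM in SLC22A15_OE and 179, 187 and 199.5 CPM in vector. COX5B had 113, 120.1 and 122 CPM in SLC22A10_OE, 88.4, 83.3 and 87.5 CPM in SLC22A15_OE and 98.2, 88.0 and 84.8 CPM in vector. For both of these small structural subunits the SLC22A10_OE libraries lay above the other 6, which overlapped. COX7C rose by 0.40 (SE 0.049, limma adjusted p = 1.14e-05) and COX5B by 0.39 (SE 0.059, adjusted p = 7.75e-05) against vector. They were the complex IV subunits called higher after centring as well. COX5A, another structural subunit, was called at 0.14 (limma adjusted p = 0.0496), COX6C at 0.20 (adjusted p = 0.0349) and COX7B at 0.16 (adjusted p = 0.0180).

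NDUFA4 was the nuclear subunit called lower than vector in both overexpressing lines. It had 78.4, 77.8 and 78.7 CPM in SLC22A10_OE, 73.6, 73.4 and 76.8 CPM in SLC22A15_OE and 89.5, 89.9 and 85.2 CPM in vector. It fell by 0.17 in SLC22A10_OE (SE 0.047, limma adjusted p = 0.00615) and by 0.24 in SLC22A15_OE (SE 0.047, adjusted p = 0.00258). NDUFA4L2, a paralogue known as a hypoxia-responsive gene, had 0.284, 0.801 and 0.576 CPM in SLC22A10_OE, 1.56, 1.64 and 0.668 CPM in SLC22A15_OE and 1.88, 1.18 and 1.17 CPM in vector. It was lower in SLC22A10_OE than in vector at -0.63 (SE 0.19, limma adjusted p = 0.00992), and the difference of -0.54 from SLC22A15_OE (adjusted p = 0.0241) was lost in 3 of the fits that left out a library. At such low CPM the size of the fall from vector depends on the method, from -1.36 to -0.25 over the alternative fits.

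Among the isoforms of complex IV, the widely expressed COX4I1, COX6A1, COX6B1, COX7A2 and COX8A were measured at 38.0 to 167 CPM. COX4I1, COX6B1, COX7A2 and COX8A were called higher in SLC22A10_OE than in vector by 0.22, 0.18, 0.26 and 0.33 (limma adjusted p = 0.00784, 0.0164, 0.00357 and 0.0101), and none of these calls held with centring. COX6A1 differed from vector by 0.14 (adjusted p = 0.0615). Against SLC22A15_OE, the calls of COX4I1, COX6A1, COX6B1 and COX7A2 were higher by 0.24 to 0.32. COX7A1, the isoform known from heart and skeletal muscle, had 1.60, 2.09 and 1.69 CPM in SLC22A10_OE, 3.11, 2.52 and 2.44 CPM in SLC22A15_OE and 2.00, 2.08 and 2.39 CPM in vector. It was lower in SLC22A10_OE than in SLC22A15_OE at -0.40 (SE 0.12, limma adjusted p = 0.00857), a call that was lost without the 3 libraries low in mitochondrial ribosomal RNA.

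Complex V, ATP synthase, had 17 measured nuclear subunits. In SLC22A10_OE 5 were higher than in vector and none lower, 29.4% of its subunits against 34.7% of all genes, and the median of 0.12 was -0.0048 after centring, when 2 were higher and 2 lower. The 5 were ATP5F1A, ATP5F1E, ATP5MC2, ATP5MD and ATP5PO. ATP5MC2, 1 of 3 genes for the same c-ring protein, had 61.4, 64.9 and 66.7 CPM in SLC22A10_OE, 47.4, 43.1 and 46.5 CPM in SLC22A15_OE, and 46.2, 44.9 and 47.0 CPM in vector. The SLC22A10_OE libraries were above the others, which overlapped. ATP5MC2 rose by 0.47 (SE 0.057, limma adjusted p = 9.08e-06), whereas ATP5MC1 and ATP5MC3 differed from vector by 0.14 (adjusted p = 0.136) and 0.10 (adjusted p = 0.0531). ATP5F1E, the ε subunit of the F1 part, had 15.9, 18.5 and 18.8 CPM in SLC22A10_OE, 14.7, 12.8 and 12.9 CPM in SLC22A15_OE and 14.9, 13.0 and 12.3 CPM in vector. It rose by 0.38 (SE 0.095, limma adjusted p = 0.00314), with the limit that ATP5F1EP2 is a near-identical copy. ATP5F1A had 778, 823 and 788 CPM in SLC22A10_OE, 682, 682 and 684 CPM in SLC22A15_OE and 717, 733 and 735 CPM in vector, and it was called at 0.13 (SE 0.038, limma adjusted p = 0.00976). ATP5F1B, its catalytic partner, had 717, 740.4 and 757 CPM in SLC22A10_OE, 699, 682 and 686 CPM in SLC22A15_OE and 701, 674 and 704 CPM in vector, with a difference of 0.09 from vector (adjusted p = 0.0579). The remaining calls were ATP5PO of the peripheral stalk at 0.17 and ATP5MD, a small membrane subunit, at 0.18 (adjusted p = 0.00719 and 0.0209). The 12 subunits that did not pass ranged from -0.10 for ATP5PB to 0.17 for ATP5ME. Against SLC22A15_OE, 6 of the 17 subunits were higher in SLC22A10_OE (35.3%) and none was lower, with a median of 0.10. Over all genes in that comparison 32.1% were higher and 30.8% lower. After centring 4 subunits were higher and 0 lower, against 25.5% and 39.8% of all genes.

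Of the 8 members that are no subunit, 1 was higher and 2 were lower in SLC22A10_OE than in vector. These shares, 12.5% and 25%, stood beside 34.7% and 32.5% of all genes. COX7A2L had 72.3, 70.6 and 69.0 CPM in SLC22A10_OE, 63.3, 63.6 and 61.0 CPM in SLC22A15_OE and 63.7, 57.7 and 59.8 CPM in vector. Its SLC22A10_OE libraries lay above the other 6, with a difference of 0.22 from vector (limma adjusted p = 0.00216). The lower members were NDUFA4L2 and UQCRBP1, given above. ATP5IF1, NDUFV2-AS1, UQCRHL and ATP5F1EP2 differed from vector by -0.23 to 0.27 without passing, and UQCRHL was higher in SLC22A10_OE than in SLC22A15_OE at 0.29 (adjusted p = 0.0220).

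Of the genes called in SLC22A15_OE, 4 were then set beside their chromosomal neighbours, the other tested genes within 5 Mb. The median difference of the neighbours between SLC22A15_OE and vector was 0.48 around NDUFB2 (31 genes), 0.45 around NDUFA5 (17 genes), 0.24 around UQCRC2 (58 genes) and -0.18 around NDUFA4 (29 genes). In these 4 cases the median of the neighbours had the sign of the member. For the remaining called member, whose values are not reported here, it had the opposite sign. Across the 82 members with at least 20 neighbours, Pearson's r between the member's difference and that of its neighbours was 0.69 in SLC22A15_OE, 0.05 in SLC22A10_OE and -0.08 between the overexpressing lines. These r are descriptions over genes of the same libraries, which are not independent, and NDUFB2 and NDUFB2-AS1 share a neighbourhood. NDUFA5, with 17 neighbours, is not among the 82. In SLC22A15_OE the neighbour medians ran from -0.18 at NDUFA4 to 0.48 at NDUFB2, and the weight of these called genes in r was not tested. In SLC22A10_OE, the neighbours of NDUFB2, NDUFA5 and UQCRC2 stood at 0.53, 0.30 and 0.13, those of NDUFA13 at 0.16 and those of SDHC at -0.04. Without the members on chromosomes 7 and 8, 2 were called higher and 0 lower in SLC22A15_OE, and 36 were higher and 5 lower in SLC22A10_OE. Copy number was not measured, and its part in these differences was not tested.

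**Figure D3:**
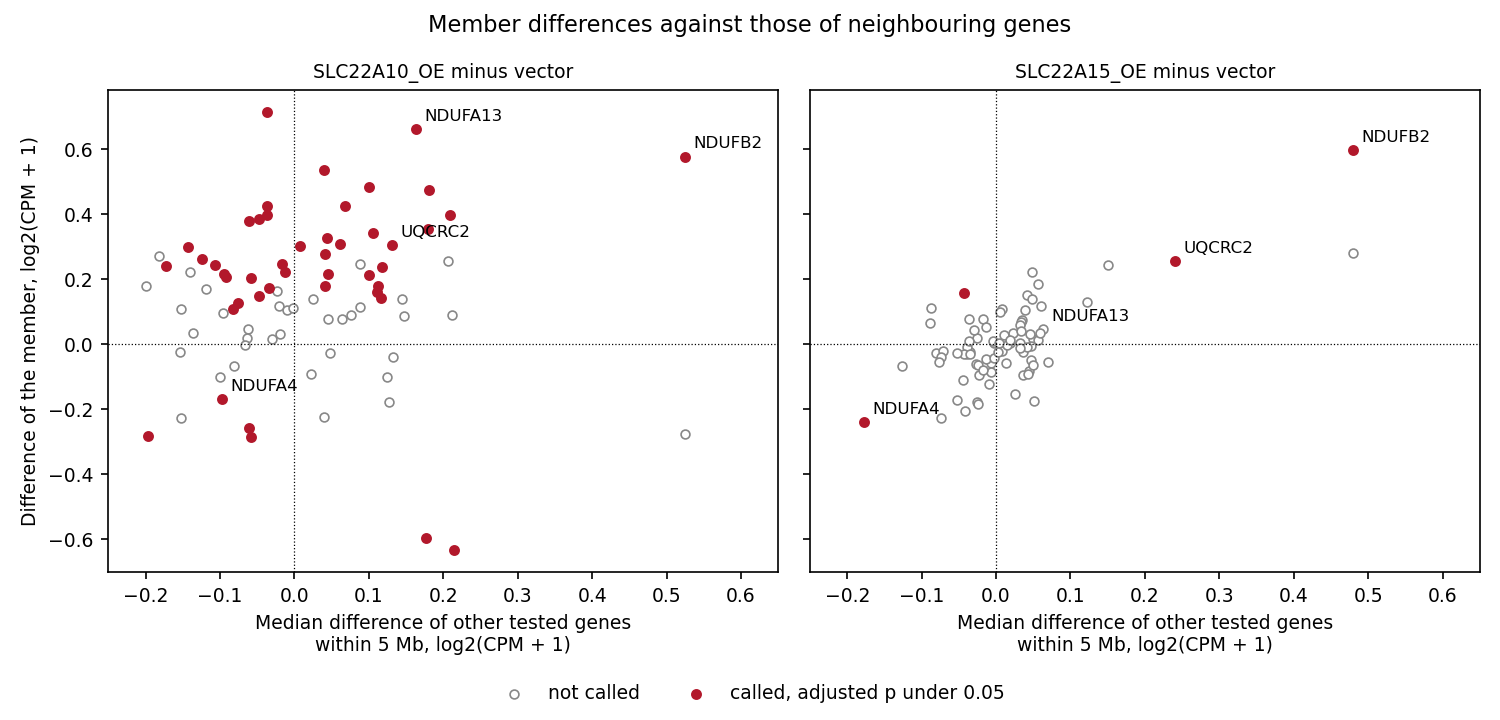
Difference of each member against the median difference of the other tested genes within 5 Mb, both on the log2(CPM + 1) scale, for SLC22A10_OE minus vector and SLC22A15_OE minus vector. Points are the 82 members with at least 20 neighbours. In SLC22A15_OE the called NDUFB2, UQCRC2 and NDUFA4 lie toward the ends of a rising cloud (r = 0.69), and in SLC22A10_OE the called members are spread over the whole range of neighbours (r = 0.05).

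The library low in mitochondrial ribosomal RNA differed from its partners along base composition, and the members followed all genes in this. Within SLC22A10_OE, the difference of library 3 from the other two rose with the median GC content of a member's transcripts (r = 0.56 over 81 members, 0.57 over 12727 genes). For library 1 of SLC22A15_OE r was 0.63 over members and 0.64 over all genes, and for library 1 of vector 0.66 and 0.70. NDUFS7, a core subunit of complex I with 66.8% GC, had 47.1, 55.6 and 64.5 CPM in SLC22A10_OE, 62.2, 43.2 and 43.7 CPM in SLC22A15_OE and 59.8, 38.6 and 43.3 CPM in vector. UQCRB, a small subunit of complex III with 38.9% GC, had 56.5, 58.6 and 41.1 CPM in SLC22A10_OE, 33.5, 47.2 and 46.7 CPM in SLC22A15_OE and 36.5, 57.4 and 50.5 CPM in vector. In both genes the library that stood apart was the one low in mitochondrial ribosomal RNA in each group, and neither gene passed in any comparison. Each group holds 1 such library, and the fold changes of the members followed GC little, with r of 0.04 in SLC22A10_OE and 0.18 in SLC22A15_OE against vector.

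**Figure D4:**
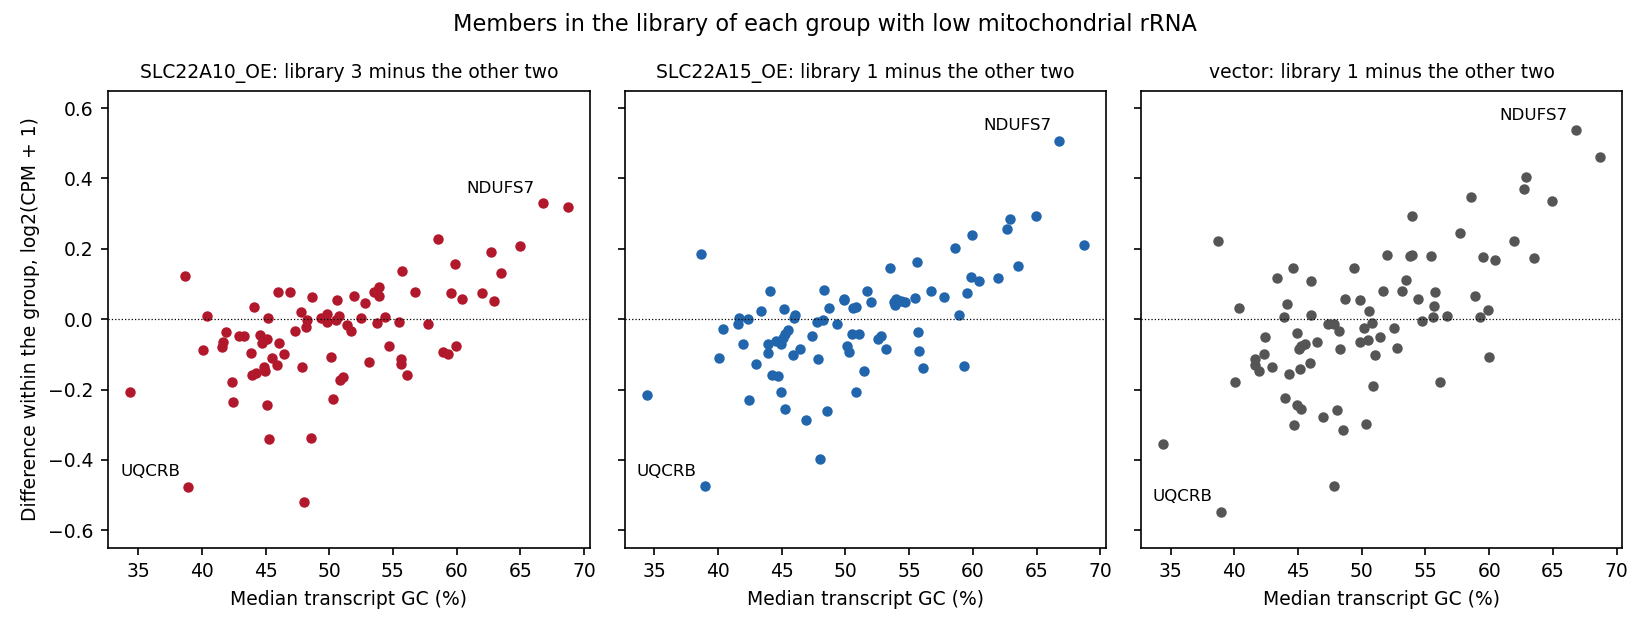
Difference on the log2(CPM + 1) scale between the library low in mitochondrial ribosomal RNA and the mean of the other two of its group, against the median GC content of the annotated transcripts (GENCODE release 29), for 81 members in SLC22A10_OE, SLC22A15_OE and vector. The points rise from left to right in all 3 groups (r = 0.56, 0.63 and 0.66), with UQCRB low and NDUFS7 high in each.

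Members have short transcripts, with a median length of 703 bases against 1848 over all genes tested. Of the 64 members with a median transcript length up to 1000 bases, 33 were higher and 1 was lower in SLC22A10_OE than in vector, with a median of 0.17. Among 2965 other tested genes of that length, 39.1% were higher and 28.1% lower, with a median of 0.06. Of the 20 members with at most 45% GC, 11 were higher and 1 was lower, where 26.2% of 3840 other genes were higher and 37.8% lower. Of the 21 members over 55% GC, 11 were higher and 2 lower, where 46.3% of 4504 other genes were higher and 23.1% lower. The part of length and GC in the members' differences was not tested further.

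The subunits encoded in mitochondrial DNA complete complexes I, III, IV and V, and all 13 were measured. In SLC22A10_OE 7 were higher than in vector and 1 lower, with a median of 0.19 that was 0.06 after centring, when 6 were higher and 2 lower. Over all genes 34.7% were higher and 32.5% lower, or 26.6% and 42.8% after centring. In SLC22A15_OE none passed in either direction, where 10.8% of all genes were higher and 9.58% lower. COX1, the catalytic subunit of complex IV, had 9301, 8033 and 8729 CPM in SLC22A10_OE, 5769.9, 6251 and 6057 CPM in SLC22A15_OE and 5706, 5946 and 5924 CPM in vector. ND4, a proton-pumping subunit of complex I, had 4121, 3248 and 3782 CPM in SLC22A10_OE, 2099.7, 2358 and 2258 CPM in SLC22A15_OE and 2237, 2339.5 and 2447 CPM in vector. Both were higher in every SLC22A10_OE library than in the other 6, by 0.57 (SE 0.056, limma adjusted p = 1.45e-06) and 0.66 (SE 0.075, adjusted p = 5.37e-06) against vector. ND4L, whose gene overlaps ND4, rose by 0.63 (adjusted p = 1.49e-06), so these counts may share reads. ND3, another subunit of complex I, was lower in SLC22A10_OE, with 114, 97.0 and 116 CPM there, 124, 138 and 132 CPM in SLC22A15_OE and 129, 134 and 139 CPM in vector (log2 difference from vector -0.30, limma adjusted p = 0.00165). The 2 mitochondrial ribosomal RNAs did not pass in any comparison, with the 3 low libraries spread over the groups.

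The carriers between the complexes were measured with the genes of coenzyme Q synthesis, 15 in all. Of these, 7 were higher and 3 lower in SLC22A10_OE than in vector, with a median of 0.09. With centring 5 were higher and 3 lower, and the median turned to -0.03. Over all genes 34.7% were higher and 32.5% lower, or 26.6% and 42.8% with centring. CYCS, which encodes cytochrome c, had 123, 133 and 115 CPM in SLC22A10_OE, 214, 253 and 249 CPM in SLC22A15_OE and 260.2, 329.8 and 309.6 CPM in vector. The groups did not overlap, and CYCS fell by 1.26 in SLC22A10_OE (SE 0.087, limma adjusted p = 5.18e-08) and by 0.32 in SLC22A15_OE (SE 0.087, adjusted p = 0.0179). HCCS, the enzyme that attaches heme to cytochrome c, fell by 0.73 in SLC22A10_OE and by 0.26 in SLC22A15_OE (limma adjusted p = 3.75e-07 and 0.00857). COQ8A, an atypical kinase needed for coenzyme Q synthesis, went the other way, with 107, 117 and 118 CPM in SLC22A10_OE, 77.0, 75.6 and 76.6 CPM in SLC22A15_OE and 49.8, 45.9 and 47.9 CPM in vector. It rose by 1.23 and 0.66 (limma adjusted p = 8.72e-10 and 1.86e-06) in SLC22A10_OE and SLC22A15_OE.

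Genes that assemble the complexes were counted in the same way in SLC22A10_OE against vector, where 34.7% of all genes were higher and 32.5% lower. With centring these shares were 26.6% and 42.8%. For complex I, 6 of 18 assembly genes were higher and 8 lower, with a median of -0.04, and 2 were higher and 8 lower with centring (median -0.16). For complex IV 2 of 23 were higher and 9 lower, with a median of -0.07, and 2 were higher and 12 lower with centring (median -0.19). NDUFAF4, a complex I assembly factor, had 20.5, 20.1 and 20.3 CPM in SLC22A10_OE, 30.2, 35.3 and 37.6 CPM in SLC22A15_OE and 39.4, 44.3 and 44.2 CPM in vector, and fell by 1.03 in SLC22A10_OE (SE 0.080, limma adjusted p = 1.62e-07) and by 0.31 in SLC22A15_OE (adjusted p = 0.0156). COA7, a complex IV assembly factor, fell by 0.70 in SLC22A10_OE (adjusted p = 1.86e-06), whereas COX15, which makes heme A, rose by 0.46 (adjusted p = 3.2e-06). For complex II, SDHAF4 and SDHAF3 were higher and the other 2 of 4 did not pass. SDHAF4 rose by 0.93 in SLC22A10_OE and 0.36 in SLC22A15_OE (limma adjusted p = 2.58e-06 and 0.0200), and SDHAF3 by 0.43 and 0.48 (adjusted p = 0.00137 and 0.00274). For complex III none of 6 was higher and 2 were lower, 4 with centring, with BCS1L, the translocase of the Rieske protein, at -0.37 (adjusted p = 0.00123). For complex V 4 of 5 were higher and 1 was lower, TMEM70 at -0.53 (adjusted p = 1.85e-05), and 1 was higher and 1 lower with centring. In SLC22A15_OE against vector, calls in the assembly lists were 1 higher and 3 lower for complex I, 2 higher for complex II, 1 lower for complex IV, and none for complexes III and V. Over all genes 10.8% were higher and 9.58% lower in that comparison.

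**Figure D5:**
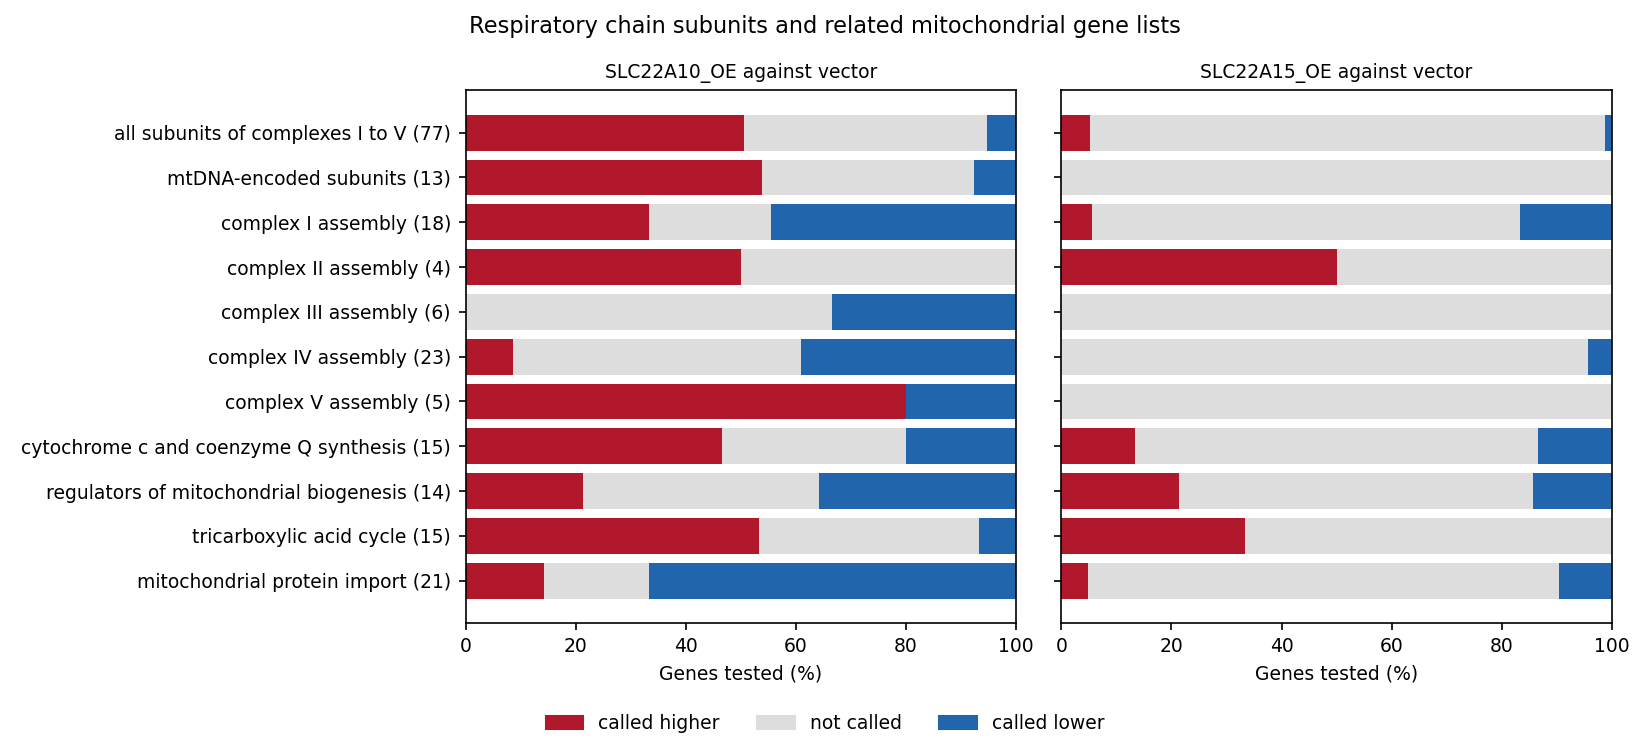
Percent of the tested genes of each list that were called higher, not called or called lower in SLC22A10_OE against vector and in SLC22A15_OE against vector, with the number of tested genes in brackets. In SLC22A10_OE the nuclear subunits have 39 of 77 called higher and 4 lower, and the protein import genes 3 of 21 higher and 14 lower. Over all genes tested 34.7% were called higher and 32.5% lower.

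Most protein import genes were lower in SLC22A10_OE. Of 21 genes of the import machinery, 3 were higher than in vector and 14 lower, with a median of -0.29. With centring 2 were higher and 15 lower (median -0.41). Over all genes 34.7% were higher and 32.5% lower, or 26.6% and 42.8% with centring. In SLC22A15_OE 1 import gene was higher and 2 lower, where 10.8% of all genes were higher and 9.58% lower. TIMM10, a chaperone of the intermembrane space, had 7.62, 8.13 and 8.35 CPM in SLC22A10_OE, 14.1, 15.2 and 14.6 CPM in SLC22A15_OE and 17.1, 14.5 and 15.4 CPM in vector. TIMM44, part of the import motor, had 43.0, 49.3 and 47.0 CPM in SLC22A10_OE, 71.8, 68.9 and 69.6 CPM in SLC22A15_OE and 78.8, 71.5 and 72.4 CPM in vector. In both genes SLC22A10_OE lay below the other 6 libraries, with falls of 0.88 and 0.67 against vector (limma adjusted p = 8.83e-07 and 7.56e-07). TOMM20, a receptor of the outer membrane, instead rose by 0.55 in SLC22A10_OE and by 0.35 in SLC22A15_OE (adjusted p = 1.49e-07 and 6.47e-05).

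The tricarboxylic acid cycle, which feeds NADH and succinate into the chain, had 8 of 15 genes higher and 1 lower in SLC22A10_OE than in vector. The median of 0.15 was 0.03 after centring, when 6 were higher and 5 lower. Over all genes 34.7% were higher and 32.5% lower, or 26.6% and 42.8% after centring. IDH2, the mitochondrial NADP-dependent isocitrate dehydrogenase, had 83.8, 86.6 and 91.4 CPM in SLC22A10_OE, 54.9, 49.2 and 51.4 CPM in SLC22A15_OE and 35.3, 28.9 and 33.0 CPM in vector. The 3 groups were apart, and IDH2 rose by 1.41 in SLC22A10_OE (SE 0.073, limma adjusted p = 4.19e-09) and by 0.67 in SLC22A15_OE (SE 0.073, adjusted p = 2.66e-05). IDH3A, a subunit of the NAD-dependent enzyme, had 52.7, 54.1 and 52.4 CPM in SLC22A10_OE, 82.9, 86.6 and 90.4 CPM in SLC22A15_OE and 83.1, 90.8 and 89.8 CPM in vector. It fell by 0.72 in SLC22A10_OE (SE 0.054, limma adjusted p = 1.12e-07) and differed by -0.02 in SLC22A15_OE (adjusted p = 0.837). In SLC22A15_OE 5 of the 15 genes were higher than in vector and none was lower, with or without centring. Over all genes 10.8% were higher and 9.58% lower there, or 9.28% and 11.6% with centring.

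Of 14 regulators of mitochondrial biogenesis, 3 were higher and 5 lower in SLC22A10_OE than in vector, with a median of -0.10. With centring 3 were higher and 8 lower (median -0.22). Over all genes 34.7% were higher and 32.5% lower, or 26.6% and 42.8% with centring, so the share called lower was near that of all genes. PPRC1 and PPARGC1B, coactivators of the PGC-1 family, had 61.3 to 67.1 and 18.5 to 21.4 CPM in SLC22A10_OE, 108 to 115 and 32.4 to 33.4 CPM in SLC22A15_OE, and 113 to 127 and 38.4 to 40.3 CPM in vector. They fell by 0.87 and 0.94 in SLC22A10_OE (limma adjusted p = 2.73e-08 and 5.35e-08). NRF1 had 21.7, 22.0 and 24.1 CPM in SLC22A10_OE, 35.0, 35.5 and 36.3 CPM in SLC22A15_OE and 29.8, 31.3 and 31.3 CPM in vector. The groups did not overlap, and NRF1 fell by 0.43 in SLC22A10_OE (SE 0.063, limma adjusted p = 4.75e-05) and rose by 0.20 in SLC22A15_OE (SE 0.063, adjusted p = 0.0351). TFB2M, a mitochondrial transcription factor, rose by 0.40 in SLC22A15_OE (adjusted p = 0.000556) and differed by -0.0019 in SLC22A10_OE (adjusted p = 0.982). Of the GABP genes, GABPA differed from vector by 0.013 in SLC22A10_OE (limma adjusted p = 0.905), and GABPB1 fell by 0.29 (adjusted p = 0.00465). YY1 differed by -0.11 there (limma adjusted p = 0.0558). Among the 35 members called higher in SLC22A10_OE that had a promoter window, 6 held the NRF1 letters (17.1%) and 11 the ETS letters (31.4%), against 15 (44.1%) and 9 (26.5%) of the other 34 members. This split rests on calls that depend on the scaling, and any part of these letters or factors in the calls was not tested.

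In the authors' deposited table for SLC22A10_OE against vector, 38 of the 85 genes were higher and 6 lower at an FDR under 0.05, and all 85 had the sign found here. In the authors' deposited table for SLC22A15_OE, 4 were higher and 1 lower, and 84 had the same sign. These tables rest on the same libraries as the values above.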

How the data were processed

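RNA from 3 lines, with 3 libraries each, was sequenced after removal of ribosomal RNA with a strand-specific kit, per the labels' protocols. The authors deposited CPM per gene and library and, per comparison with vector, a table with log2 fold changes and FDR-adjusted p-values, per the file headers. The submitters' processing notes name edgeR and list the builds hg38 and mm9 without a role. The sources used here do not name the aligner, the counting program or its strand setting. Of the deposited CPM values, 100% were within 0.1 read of a whole number of reads, which gave the library totals. The columns carry a group and a number and were tied to a group but not to a single sample. Because the deposited values were CPM, limma (3.58.1, R 4.3.3) was fitted to log2(CPM + 1) with a mean trend over all 9 libraries (6 residual degrees of freedom, 3 contrasts, two-sided, Benjamini-Hochberg over 14554 genes, threshold 0.05). A fold change on this scale understates the change of low genes. edgeR (4.0.16) and DESeq2 (1.42.0) were run on the recovered reads as alternatives, and the procedure was tested on simulated data. The text names all SDH genes, in each other complex and contrast the 2 called members with the largest changes in each direction, isoforms of complex IV, the genes nearest the expression minimum, and from each list up to 3 called genes by smallest adjusted p. NDUFV1, NDUFB11, UQCRBP1, NDUFB2-AS1, NDUFS7, UQCRB, TFB2M and members of the c ring were added after their values were seen, as were ND3 and the promoter stretches shown. NDUFS4, COX7A2L, GABPA, GABPB1 and YY1 were added likewise, and the remaining members are given as complete groups. The values of 1 member that the rule names are not reported here. The members, lists and rules were chosen with earlier results of these data known. Positions and promoters came from RefSeq (GRCh38.p14), transcript length and GC from GENCODE release 29. Intervals from counts cover counting error only. pandas (2.3.3), numpy (2.4.6) and matplotlib (3.10.9) were used.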

Additional observations from a re-analysis of the deposited data

How the results depend on the processing

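Of 48 calls of named members, 34 held under every alternative, 14 were lost under at least 1, and SDHA in SLC22A10_OE against vector changed sign with centring, to -0.011. With each library centred on its median, 18 members were called higher and 16 lower in SLC22A10_OE against vector (median 0.039). In SLC22A15_OE against vector, 4 were higher and 3 lower. In SLC22A10_OE against SLC22A15_OE, 25 were higher and 11 lower (median 0.067). Over all genes the centred shares, higher and lower, were 26.6% and 42.8%, 9.28% and 11.6%, and 25.5% and 39.8%, in the same order. The members lower in SLC22A15_OE against vector were 3 with DESeq2 and 3 with the replicate block by column number, against 1 as reported. Same-numbered libraries did not pair, with correlations of their deviations from the group means of -0.41 to 0.57, the highest between 2 libraries low in mitochondrial ribosomal RNA, and the block left SLC22A10_OE at 38 higher and 6 lower. A term for low mitochondrial ribosomal RNA gave 9 higher and 12 lower in SLC22A15_OE (19.7% and 18.8% of all genes) and 55 and 8 in SLC22A10_OE (39.1% and 37.6%). Leaving out the 3 libraries gave 8 and 9 in SLC22A15_OE (16.1% and 14.8%). Leaving out each library in turn gave 1 to 4 lower in SLC22A15_OE against vector, with 4 without vector replicate 1 and 2 without SLC22A15_OE replicate 1, and 30 to 40 higher in SLC22A10_OE against vector. Without members on chromosomes 7 and 8, 2 were higher and 0 lower in SLC22A15_OE. Without the members that are no subunit, 3 were lower in SLC22A10_OE than in SLC22A15_OE. The pseudocounts of 0.25 and 4 CPM, no filter, edgeR and a fit of only the groups compared kept each count within 1.5 times. At 3 libraries a group, small changes of the lowest members, such as NDUFA3 and NDUFA4L2, rest on few reads.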
